A study of Mus musculus with 20 samples.

Results

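The Hox clusters were represented by 101 promoter windows of 3500 bp, of 54034 windows in all. They were taken by position alone, as every window on build GRCm39 whose start lay in 1 of 4 intervals. HoxA was chr6:52100000-52300000 with 40 windows, HoxB was chr11:96050000-96300000 with 22, HoxC was chr15:102800000-102980000 with 17, and HoxD, with Evx2, was chr2:74450000-74630000 with 22. Levels were measured by bisulfite sequencing of single mouse blastocysts, and each library was 1 embryo. The 10 embryos of the Padi6-mutant group came from oocytes carrying the P620A change in PADI6, an oocyte protein of the peptidylarginine deiminase family, and 10 embryos were labelled only as controls. Each embryo's DNA was separated from its RNA and made into a library by random priming after bisulfite conversion. The mutant group holds only embryos that reached the blastocyst stage. Strain, the genotype of the father, litter, sex and the day of development are not stated in the labels, so embryos were treated as separate replicates although some can share a mother. The question was whether the loss of PADI6 function in the egg changes promoter methylation at the blastocyst stage.

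Hox genes encode homeodomain transcription factors that give body segments their identity along the head-to-tail axis. Their order within a cluster follows the order in which they are switched on, with the genes of low number expressed early and anteriorly and those of high number late and posteriorly. Before that, the clusters are textbook targets of Polycomb complexes, which mark them with trimethylated histone H3 lysine 27, and their CpG-rich promoters are known to stay largely free of DNA methylation. RNA was not analysed here, so silence of the genes was not measured. In the RefSeq gene table at hand the clusters held 39 Hox genes, 11 in HoxA, 10 in HoxB, 9 in HoxC and 9 in HoxD. Along the chromosome, HoxA has Hoxa13 and then Evx1 at its high-coordinate end, while HoxB runs from Hoxb13 to Hoxb1, HoxC from Hoxc13 to Hoxc4, and HoxD from Evx2 and Hoxd13 to Hoxd1. That table is on build GRCm38.p6 and the windows are on GRCm39, so no window was tied to a single gene and windows are named by position.

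The 4 promoter sequences from the ends of the clusters show how unequal the density of methylatable sites was. They are RefSeq sequences on GRCm38.p6, from 250 bases before to 50 after the gene start, written in the direction of transcription. Capitals mark the dinucleotide CG, which reads the same on both strands and is the site that bisulfite sequencing scores. Their coordinates cannot be compared with those of the windows.
Hoxa13 promoter, chr6:52260831-52261130, minus strand, GRCm38.p6: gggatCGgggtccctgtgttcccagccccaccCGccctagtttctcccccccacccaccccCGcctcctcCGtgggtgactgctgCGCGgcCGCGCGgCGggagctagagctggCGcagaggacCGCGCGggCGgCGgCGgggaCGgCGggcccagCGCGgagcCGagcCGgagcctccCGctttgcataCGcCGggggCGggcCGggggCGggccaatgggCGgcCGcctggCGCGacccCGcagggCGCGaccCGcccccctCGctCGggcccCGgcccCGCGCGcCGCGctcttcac
Hoxb1 promoter, chr11:96365508-96365807, plus strand, GRCm38.p6: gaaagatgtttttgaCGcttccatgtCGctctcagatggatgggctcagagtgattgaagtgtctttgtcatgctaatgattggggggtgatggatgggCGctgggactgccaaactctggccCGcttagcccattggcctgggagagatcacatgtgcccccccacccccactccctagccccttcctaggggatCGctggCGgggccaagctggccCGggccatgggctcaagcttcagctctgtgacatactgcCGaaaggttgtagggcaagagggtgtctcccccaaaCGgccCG
Hoxc4 promoter, chr15:103034145-103034444, plus strand, GRCm38.p6: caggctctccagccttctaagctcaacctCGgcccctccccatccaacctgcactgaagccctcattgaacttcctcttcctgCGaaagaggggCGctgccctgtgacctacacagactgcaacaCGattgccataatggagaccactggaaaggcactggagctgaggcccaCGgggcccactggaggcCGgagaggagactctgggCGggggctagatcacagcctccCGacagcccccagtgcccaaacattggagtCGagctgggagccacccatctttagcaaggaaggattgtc
Hoxd13 promoter, chr2:74667975-74668274, plus strand, GRCm38.p6: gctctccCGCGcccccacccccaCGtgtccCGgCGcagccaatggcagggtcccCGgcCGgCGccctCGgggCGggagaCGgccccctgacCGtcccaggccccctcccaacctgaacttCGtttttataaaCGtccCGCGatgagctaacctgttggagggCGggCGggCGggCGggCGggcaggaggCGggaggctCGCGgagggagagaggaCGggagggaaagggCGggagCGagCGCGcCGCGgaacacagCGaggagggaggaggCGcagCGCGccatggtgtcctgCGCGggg
Hoxa13 and Hoxd13, genes of the posterior end of the body and limb, carried 45 and 37 CG in 300 bases, counts that 1.93% and 5.58% of all 32851 RefSeq promoters reach. Hoxb1, which acts in the hindbrain, carried 10, and Hoxc4, at the anterior end of HoxC, carried 9, counts reached by 43.5% and 45.8% of all promoters. Over the 26 promoters of the 24 Hox and Evx genes with a sequence, the median was 14.5 CG (4 to 45), against 7 over all promoters. Of these promoters, 19 of 26 held at least 10 CG, against 43.5% of all promoters. Of the 26, 7 held fewer than 10. The sequences cover 9 of 11 Hox genes of HoxA and all 9 of HoxD, but 3 of 10 of HoxB and 1 of 9 of HoxC, so the counts describe mainly HoxA and HoxD.

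The number of windows with a value differed widely between embryos. Read counts were not in the table, so the depth behind a level is unknown. The 3 densely covered Padi6-mutant embryos (replicates 11, 12 and 14) had a value in 86 to 97 of the 101 Hox windows, and the other 7 in 14 to 42. The 6 densely covered control embryos (replicates 1 to 5 and 10) had a value in 86 to 97, and the other 4 in 14 to 46. In all 20 embryos a larger share of Hox windows than of other windows had a value. Of the 101 windows, 97 were covered in 3 or more embryos per group and were tested. Neighbouring windows overlap and share reads: the 40 HoxA windows formed 16 separate stretches, the HoxB windows 18, the HoxC windows 11 and the HoxD windows 15.

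Hox promoters were little methylated in both groups. The mean over the Hox windows of an embryo was 4.77% ± 4.01 in Padi6-mutant embryos and 8.27% ± 11.1 in control embryos (SD, n = 10 each). Padi6-mutant embryos ran from 0.0% to 12.6% with a median of 3.94%, and control embryos from 2.38% to 39.6% with a median of 5.00%. The groups overlapped, with 3 Padi6-mutant embryos below every control. These were replicates 17, 18 and 20, which had a value in only 14, 15 and 27 Hox windows. The highest value belonged to control replicate 9, which had a value in 14 Hox windows. The difference of -3.50 points (SE 3.74) rested on that embryo: without it the difference was -0.02 points. No p is given for a mean over the windows, since the set was chosen with earlier results of these data known.

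Among densely covered embryos the means were 5.81% ± 1.65 in Padi6-mutant (SD, n = 3) and 5.74% ± 1.20 in control embryos (SD, n = 6), a difference of 0.07 points. Padi6-mutant replicates 11, 12 and 14 stood at 6.78%, 3.91% and 6.74%, within the control range but for replicate 12. The 6 controls ran from 4.42% to 7.62%. Over the 53 Hox windows with a value in all 9 of these embryos, the means were 5.35% ± 1.47 and 4.62% ± 0.86, and over the 17581 other windows with that coverage 10.25% ± 4.15 and 11.997% ± 1.38 (SD, n = 3 Padi6-mutant and 6 control). Padi6-mutant embryos thus had a higher mean at the Hox windows and a lower mean elsewhere, both by less than the larger of the group SDs. Among sparsely covered embryos, the means were 4.32% ± 4.74 in Padi6-mutant (SD, n = 7) and 12.1% ± 18.4 in control embryos (SD, n = 4), with control replicate 9 among these controls.

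**Figure D1:**
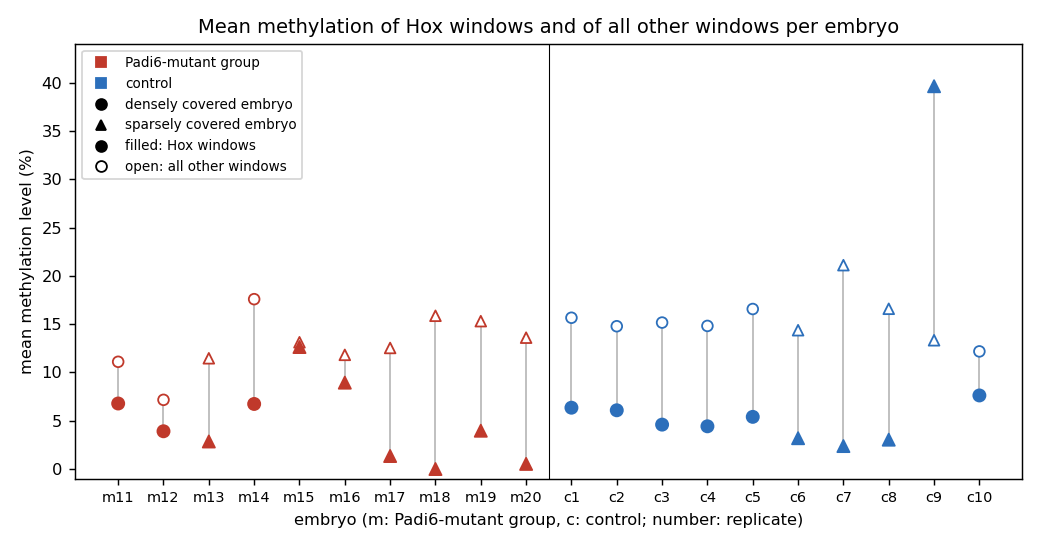
Mean methylation level in percent of the Hox windows (filled) and of all other windows (open) in each embryo, Padi6-mutant (red) left and control (blue) right; circles are densely and triangles sparsely covered embryos. The Hox mean lies below the other mean in 19 of 20 embryos, and control replicate 9 at 39.6% is the exception.

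The level of the Hox windows was below that of all other windows in 10 of 10 Padi6-mutant and 9 of 10 control embryos. The other windows averaged 12.96% ± 2.92 in Padi6-mutant and 15.5% ± 2.40 in control embryos (SD, n = 10 each). Window by window, the 97 tested Hox windows had a median level of 3.79% (mean of the 2 group means), against 10.3% over all 37645 tested windows. Of the Hox windows, 84 lay under 10% (86.6%), against 48.8% of all windows, and 4 lay at 20% or more (4.12%), against 24.1%. By cluster the median window level was 3.07% in HoxA, 4.58% in HoxB, 4.49% in HoxC and 3.79% in HoxD, so the 4 clusters differed by less than they did from the median over all windows.

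**Figure D2:**
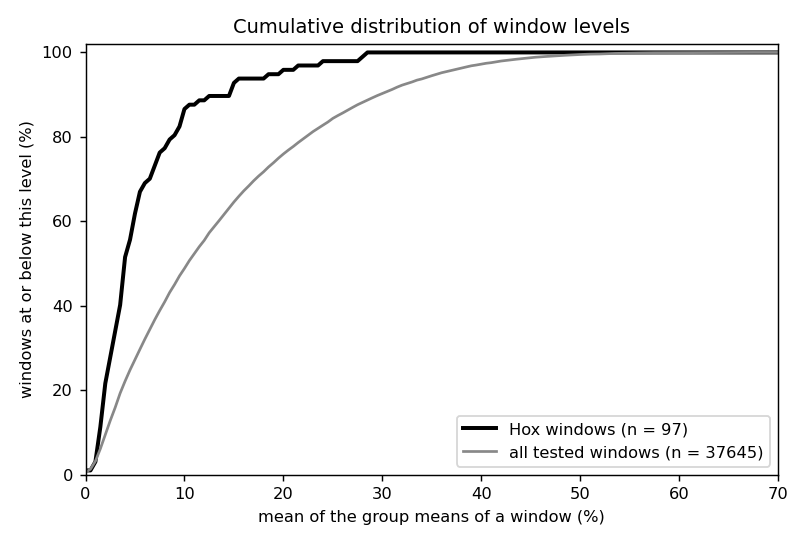
Share of windows (percent) at or below a given level, where the level is the mean of the 2 group means in percent, for the 97 tested Hox windows (black) and all 37645 tested windows (grey). The Hox curve reaches 86.6% below a level of 10%, against 48.8% for all windows.

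Values of exactly 0 made up most of the Hox data. They were 55.7% of 469 values in Padi6-mutant and 59.9% of 690 values in control embryos, against 54.5% and 44.9% of the values of the other windows. Values of 50% or more were 11 of 469 in Padi6-mutant and 21 of 690 in control embryos, or 2.35% and 3.04%, against 11.1% and 13.2% of the values of the other windows. They fell in 25 windows, of which 5 had such a value in at least 2 embryos and 3 in both groups. Of the 95 Hox windows with a value in at least 7 densely covered embryos, 57 had no value of 20% or more in those embryos (60.0%). The share was 29.9% over all windows with that coverage. With the depth unknown, a single high value can rest on few reads.

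The share of 0 values per embryo averaged 68.8% ± 25.02 in Padi6-mutant and 62.7% ± 19.2 in control embryos (SD, n = 10 each). Among densely covered embryos it ran the other way, at 41.5% ± 16.95 (SD, n = 3) in Padi6-mutant and 54.9% ± 8.92 (SD, n = 6) in control embryos. In HoxA, 25%, 59.5% and 20.0% of the values were 0 in Padi6-mutant replicates 11, 12 and 14, against 45.9% to 69.2% in the 6 densely covered controls. Replicates 11 and 14 lay below all 6 controls there and replicate 12 within their range. Overlapping HoxA windows share reads, so their values are not separate. Mean shares in densely covered Padi6-mutant and control embryos were 57.0% and 52.0% in HoxB and 42.4% and 43.0% in HoxC. In HoxD they were 38.4% and 54.6%. Over the windows outside the clusters the shares were 49.4%, 58.6% and 32.1% in Padi6-mutant replicates 11, 12 and 14. They were 33.4% to 50.6% in the 6 controls.

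**Figure D3:**
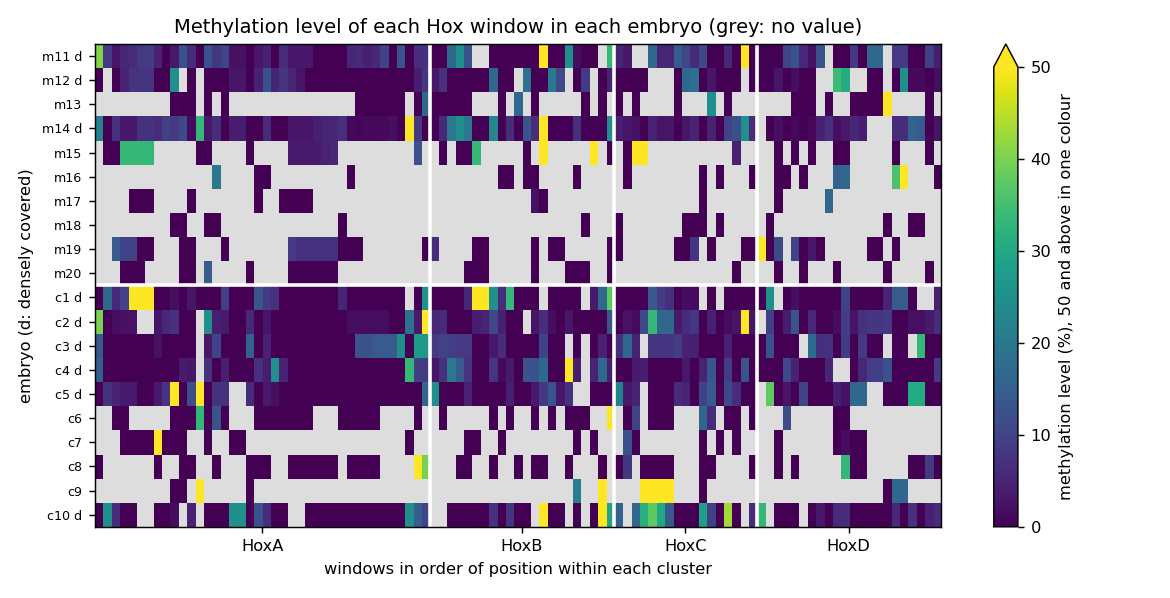
Methylation level in percent of the 101 Hox windows (columns, by position within each cluster) in the 20 embryos (rows, Padi6-mutant above control; d marks densely covered embryos). Most cells are at or near 0, grey cells have no value, and in HoxA the rows of Padi6-mutant replicates 11 and 14 hold more low values above 0 (25% and 20.0% of values at 0) than the densely covered controls (45.9% to 69.2%).

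No Hox window passed the test between the groups. In limma across all 37645 windows, 14 windows (0.0372%) had an adjusted p under 0.05, and 0 of the 97 Hox windows did; the smallest adjusted p among them was 0.761. At an unadjusted p under 0.05 there was 1 Hox window of 97, or 1.03%, against 5.75% of all windows. The median difference over the Hox windows, Padi6-mutant minus control, was 0.17 points, against -1.07 points over all windows. Padi6-mutant means were higher in 50 Hox windows (51.5%), lower in 46 (47.4%) and equal in 1, so directions were mixed. Over all windows 43.5% were higher and 55.8% lower. A loss of 10 points or more was seen in 4 Hox windows (4.12%), against 22.2% of all windows, and a gain of that size in 6 (6.19%), against 15.1%. A window near 0 cannot lose 10 points, so the low level of the set bounds the losses it can show. The median standard error of a difference was 4.01 points at the Hox windows and 9.26 points over all windows, so differences of a few points at a single window were not detectable.

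HoxA had the lowest median window level of the 4 clusters when every tested window was counted. Its windows of 10% or more lay in its outer parts. Up to 9 overlapping HoxA windows shared 1 stretch, and the ranking was not checked over separate stretches. The 40 HoxA windows spanned 186.3 kb. Over them, embryos averaged 3.69% ± 3.33 in the Padi6-mutant group and 6.63% ± 6.58 in controls (SD, n = 10 each), a difference of -2.94 points. Without control replicate 9 it was -0.90 points, and among densely covered embryos -0.25 points (4.84% against 5.09%). Over windows that do not overlap, with control replicate 9 included, it was larger, at -5.87 points (3.93% against 9.80%, all embryos). Of the tested windows, 16 lay in the middle of 3 equal lengths of the span of the windows, chr6:52181068-52226778. They had a median of 1.90% and a highest level of 5.56%. The 14 in the low-coordinate part had a median of 5.61%, and the 10 in the high-coordinate part, toward Hoxa13 and Evx1, had 2.29%.

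The highest HoxA window, chr6:52157090-52160589, held 0%, 33.3% and 0% in Padi6-mutant embryos and 0%, 50%, 33.3% and 100% in controls. The groups overlapped and 7 of the 20 embryos had a value (difference -34.7 points, SE 23.6, limma adjusted p = 0.834). At the high-coordinate end, chr6:52291318-52294817 held 7.14%, 8%, 16.7%, 0% and 0% in Padi6-mutant embryos. Its 7 control values ran from 8.82% to 85.7% with a median of 25%, and 5 of them lay above every Padi6-mutant value. The difference of -24.0 points (SE 11.7) did not pass (limma adjusted p = 0.834). At the other end, chr6:52108527-52112026 held 40.9%, 0% and 22.2% in Padi6-mutant embryos and 0% to 40.0%, with a median of 0%, in 7 controls. The difference of 11.2 points (SE 10.8, limma adjusted p = 0.834) had the opposite sign.

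Of 4 HoxA windows that shared the best coverage, 15 embryos each, none averaged 5% or more in either group. The window chr6:52149197-52152696 was at 0.0% to 12.5% in 6 Padi6-mutant embryos, median 0%, and at 0% in 8 of 9 controls, with 3.70% in the remaining control. Its neighbour chr6:52151135-52154634 was at 0% to 6.25% in 7 Padi6-mutant and 0% to 11.8% in 8 control embryos. The window chr6:52168234-52171733 averaged 4.27% ± 6.35 (SD, n = 7) in Padi6-mutant and 4.40% ± 8.70 (SD, n = 8) in control embryos, with a highest value of 14.3% and 25%. The largest gain besides the end window was at chr6:52134798-52138297, which averaged 9.50% ± 12.1 (SD, n = 6) in Padi6-mutant and 1.97% ± 3.52 (SD, n = 8) in control embryos (limma adjusted p = 0.834). The single highest value there, 33.3%, came from Padi6-mutant replicate 15.

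HoxB held the window with the largest gain of that cluster near its centre and its largest loss near Hoxb1's end. Its 22 windows spanned 218.1 kb and averaged 4.52% ± 5.84 in Padi6-mutant and 10.8% ± 18.03 in control embryos (SD, n = 10 each), a difference of -6.26 points. Without control replicate 9 it was -0.71 points, and among densely covered embryos it was 1.37 points (8.28% against 6.92%). The high-coordinate part, toward Hoxb1, had the highest median window level of the cluster, 9.17%, against 3.92% in the middle part and 5.89% in the low-coordinate part, toward Hoxb13.

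The window chr11:96197237-96200736 held 50%, 0%, 100%, 50% and 0% in 5 Padi6-mutant embryos, and its 6 control values ran from 0% to 50% with a median of 9.17%. Densely covered Padi6-mutant replicates 11 and 14 gave the 50% and the 100%, and the groups overlapped (difference 24.8 points, SE 17.6, limma adjusted p = 0.834). At chr11:96253578-96257077 the 3 Padi6-mutant values were all 0%, while 8 control values ran from 0% to 100% with a median of 10.6%, and 3 of the controls were at 0% as well (-29.7 points, SE 24.6, limma adjusted p = 0.834). The outermost window, chr11:96279938-96283437, averaged 10.6% ± 14.8 (SD, n = 6) in Padi6-mutant and 19.2% ± 19.9 (SD, n = 7) in control embryos. Its difference of -8.61 points was 7.08 points among densely covered embryos. At chr11:96245018-96248517 a single Padi6-mutant value of 50% beside 0% and 0% stood against 0% to 5.00% in 7 controls. At chr11:96138924-96142423 the 4 Padi6-mutant values were 0%, and 4 of 6 control values were 0% as well, with 4.94% and 50% in the others. The best covered HoxB windows were low: chr11:96191162-96194661 averaged 1.05% ± 2.23 (SD, n = 8) in Padi6-mutant and 2.68% ± 4.58 (SD, n = 7) in control embryos. The window chr11:96091273-96094772, toward Hoxb13, averaged 5.42% ± 8.72 (SD, n = 6) and 3.21% ± 3.65 (SD, n = 8).

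HoxC had its highest windows in the parts toward Hoxc13 and toward Hoxc4, and single embryos gave most of the high values. Its 17 windows spanned 144.2 kb and averaged 5.75% ± 10.5 in Padi6-mutant and 10.95% ± 17.9 in control embryos (SD, n = 10 each), a difference of -5.20 points. Without control replicate 9 it was 0.25 points, and without Padi6-mutant replicate 15 it was -8.40 points. Leaving out either embryo thus moved it, and its sign was not stable. Among densely covered embryos, which include neither of these, it was -1.52 points (5.62% against 7.14%). In a run of overlapping windows starting at chr15:102850794-102854293, Padi6-mutant replicate 15 stood at 66.7% where the other 3 Padi6-mutant values were 0%, 0% and 2.17%. The 8 controls there ran from 0% to 16.7%. In chr15:102852931-102856430, of the same run, the Padi6-mutant values were 0%, 0% and 66.7%. The 6 control values ran from 0% to 75% with a median of 7.56%. The 3 windows that follow in this run had a value in 2 Padi6-mutant embryos and 9 controls, and were not tested.

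Elsewhere in HoxC levels were mixed or low. The window chr15:102924366-102927865, toward Hoxc4, held 50%, 25% and 0% in Padi6-mutant embryos and 0%, 100%, 0%, 12.5% and 0% in controls (2.50 points, SE 25.6, limma adjusted p = 0.986). The window chr15:102872878-102876377 averaged 7.40% ± 6.68 (SD, n = 5) in Padi6-mutant and 2.27% ± 3.23 (SD, n = 6) in control embryos. The window chr15:102903689-102907188 averaged 3.89% ± 4.84 (SD, n = 4) and 9.91% ± 15.4 (SD, n = 7), with 43.3% in control replicate 10. The best covered window, chr15:102878785-102882284, had a median of 0% in each group and reached 10.7% in Padi6-mutant and 28.6% in control embryos. Of 5 windows that follow with 13 embryos each, chr15:102826538-102830037 had the lowest start; it too had a median of 0% in each group and reached 5.26% and 21.9%. Another of the 5, chr15:102881874-102885373, averaged 6.59% ± 10.5 (SD, n = 5) in Padi6-mutant and 5.94% ± 5.92 (SD, n = 8) in control embryos, with medians of 2.94% and 5.20%. A single window of the 97, chr15:102896039-102899538, was at 0% in all 11 embryos with a value, 5 Padi6-mutant and 6 control.

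HoxD was the cluster with a higher mean in the Padi6-mutant group. Its 22 windows spanned 144.3 kb and averaged 5.76% ± 6.18 in Padi6-mutant and 4.81% ± 2.90 in control embryos (SD, n = 10 each), a difference of 0.94 points, smaller than either SD. Without Padi6-mutant replicate 16 it was -0.75 points, over windows that do not overlap -0.23 points, and among densely covered embryos 0.59 points (5.28% against 4.69%).

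The Hox window with the smallest p lay at the low-coordinate end of this cluster, on the side of Evx2 and Hoxd13. At chr2:74459184-74462683 all 5 Padi6-mutant embryos with a value (replicates 11, 12, 14, 18 and 19) were at 0%. Controls 1 to 5 stood at 25%, 9.09%, 12.5%, 0% and 37.5%, so the groups met at 0% in a single control. The difference was -16.8 points (SE 6.37, unadjusted limma p = 0.0261, limma adjusted p = 0.761). The next window outward, chr2:74451986-74455485, held 0%, 0% and 50% in Padi6-mutant and 0%, 0%, 0% and 33.3% in control embryos, with no such separation.

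The largest gain of HoxD was at chr2:74554072-74557571. Padi6-mutant replicates 11, 12, 14 and 16 held 8.82%, 25%, 6.25% and 100%, and 7 controls ran from 0% to 16.7% with a median of 0%. The groups overlapped, and the difference of 30.6 points (SE 15.5, limma adjusted p = 0.834) was 8.94 points without replicate 16. The window chr2:74545975-74549474 held 50%, 0% and 0% in Padi6-mutant and 0% to 12.5% in 6 control embryos. The window chr2:74581799-74585298, toward Hoxd1, averaged 3.82% ± 6.99 (SD, n = 4) and 11.02% ± 16.3 (SD, n = 6). The best covered HoxD window, chr2:74489402-74492901, was at 0% to 11.1% in 8 Padi6-mutant embryos and at 0% in all 7 controls. Of 4 windows that follow with 13 embryos each, chr2:74502357-74505856 averaged 4.36% ± 5.68 (SD, n = 6) in Padi6-mutant and 2.89% ± 4.87 (SD, n = 7) in control embryos. The other 3 were not near 0 in every embryo: chr2:74527431-74530930 averaged 10.2% ± 13.4 (SD, n = 5) in Padi6-mutant and 8.88% ± 10.6 (SD, n = 8) in control embryos. The window chr2:74525071-74528570 averaged 8.61% ± 13.9 (SD, n = 6) and 1.70% ± 2.48 (SD, n = 7), and chr2:74553414-74556913 averaged 8.38% ± 13.9 (SD, n = 6) and 5.22% ± 7.33 (SD, n = 7).

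**Figure D4:**
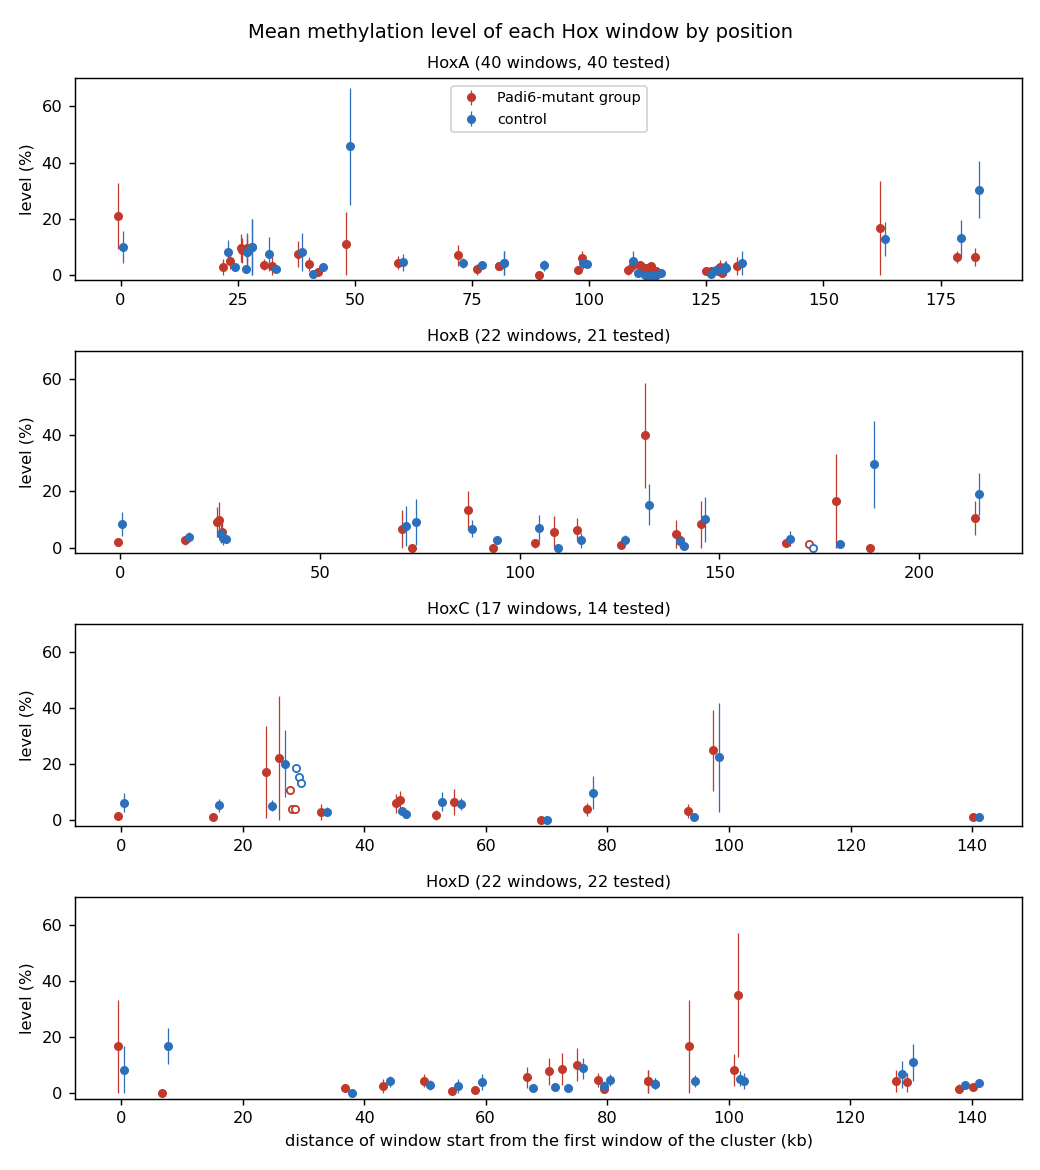
Mean methylation level in percent of each Hox window against the distance in kb of its start from the first window of its cluster, in Padi6-mutant (red) and control embryos (blue); bars are standard errors over embryos, cut at 0, and open points are windows with fewer than 3 embryos in a group. Most windows lie under 10% in both groups, and the higher ones have wide bars.

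Windows of 10% or more lay mostly in the outer parts of the clusters. The span of each cluster's windows was cut into 3 equal lengths, a division made after the values were seen. In the middle parts 1 of 41 tested windows had a level of 10% or more, against 12 of 56 in the outer parts. The cuts follow the windows and not the genes, so outer windows can lie outside the Hox and Evx genes. The exception was the HoxB window at chr11:96197237-96200736. The median window level was 3.52% in the middle parts and 5.46% in the outer parts, with a median of 11 embryos per window in each. The HoxC medians went the other way, with 5.25% over its 4 middle windows. They were 4.75% over 7 tested windows toward Hoxc13 and 2.24% over 3 toward Hoxc4. No middle window of HoxC reached 10%, and the highest stood at 6.90%. In HoxD the middle part had a median of 3.66%, against 5.90% toward Evx2 and 6.80% toward Hoxd1. The outer mean was above the middle mean in 6 of 10 Padi6-mutant and 10 of 10 control embryos, and in 2 of 3 and 6 of 6 of the densely covered ones. Whether the groups differ in this was not tested. The middle parts averaged 3.42% ± 2.21 in Padi6-mutant and 2.77% ± 1.96 in control embryos, and the outer parts 5.86% ± 5.97 and 9.99% ± 12.9 (SD, n = 10 each). Control replicate 9 stood at 46.2% in the outer parts and 0% in the middle parts. Outer means of the other controls ran from 3.47% to 8.67%, so the higher control mean there rested on that embryo.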

How the data were processed

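Methylation of promoter windows was measured in 20 single blastocysts, 10 Padi6-mutant (replicates 11 to 20) and 10 control (replicates 1 to 10), grouped by title. The submitters' processing notes name Trim Galore 0.4.4, Bismark 0.18.2 and the build GRCm39 (mm39). What the authors deposited is a methylation level in percent for each window and embryo; the rule that combined calls, and any minimum coverage, is not given in the sources used here. Without read counts no binomial interval can be given. Of 54080 rows, 46 repeats were dropped. In all, 1594 whole numbers above 100, 12 of them in Hox windows, were read as percents that had lost the decimal point and divided by 1000.

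Windows covered in 3 or more embryos per group were compared with limma 3.58.1 in R 4.3.3 (lmFit, eBayes, untransformed percent), with Benjamini-Hochberg adjustment over all tested windows and a threshold of 0.05. The procedure was tested on shuffled values, with large gains added at well covered windows of low level. That test does not speak to differences of a few points or to windows with few embryos. P-values reflect only the spread among these embryos, which may be partly technical. An embryo's level is the plain mean of its windows, and densely covered means more than 30000 windows with a value. Windows named are those past the threshold and, per cluster, the 3 highest, the 2 largest gains and losses among tested windows, and the 2 with most embryos (among ties, the lower start); any other was picked with its value in view. The windows and lists were chosen with earlier results of these data known. The planned list of Polycomb and developmental genes was not analysed here, since windows carry no gene names. A promoter planned for printing is not reported here, and Hoxa13 was added. Alternatives were the minimum number of embryos, coverage, overlap, transformation, variance model and single embryos left out.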

Additional observations from a re-analysis of the deposited data

Results flagged for a closer look

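Control replicate 9 lay far above the other 9 controls in mean Hox methylation, at 39.6% with the next control at 7.62%. It also stood apart in HoxA (25%), HoxB (60.7%) and HoxC (60.0%). It had a value in 14 Hox windows, which fell in 9 separate stretches: 5 windows were at 0%, and 6 windows in 3 stretches were at 50% or more, 4 of them overlapping HoxC windows at 75%. Over the same 14 windows the Padi6-mutant embryos averaged 8.23% ± 10.7 (SD, n = 10) and the other controls 6.55% ± 6.34 (SD, n = 9). Its mean over all other windows, 13.3%, was within the control range. Padi6-mutant replicate 15 stood apart in HoxC (34.5%) and Padi6-mutant replicate 16 in HoxD (21.0%). Of 12 groups of embryo means and shares checked, 6 held an embryo whose gap to the others was past the limit. Of the 6, 4 come from control replicate 9 and are not independent. The nominal rate of about 1 in 20 holds for normally distributed values of equal precision. These values are bounded and rest on unequal numbers of windows, so the count cannot be set against that rate.

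Most named windows were chosen for a high level or a large gain or loss, which a single extreme embryo can produce. The count of such embryos there can therefore not be set against chance. At the named windows, 19 of 43 groups held an embryo whose gap to the others was past the limit. In Padi6-mutant embryos these were replicate 15 at chr6:52134798 (33.3%) and chr15:102850794 (66.7%), replicate 11 at chr6:52151135 (6.25%) and chr15:102878785 (10.7%), replicate 14 at chr11:96191162 (6.25%) and chr2:74581799 (14.3%), and replicate 19 at chr2:74489402 (11.1%). In controls, replicate 2 stood apart at chr6:52291318 (85.7%), chr6:52108527 (40.0%), chr15:102924366 (100%) and chr2:74502357 (13.1%). Control replicate 1 did so at chr6:52134798 (10.0%) and chr11:96138924 (50.0%), replicate 4 at chr6:52149197 (3.70%) and chr11:96191162 (12.5%), and replicate 5 at chr6:52151135 (11.8%). Control replicate 10 did so at chr11:96197237 (50.0%), chr15:102903689 (43.3%) and chr2:74451986 (33.3%). Depth is unknown, and its part in these values was not tested.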

How the results depend on the processing

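No Hox window passed under any of the 26 alternative fits in limma. At an unadjusted p under 0.05 there were 7 of 97 Hox windows with trend and robust fitting, 6 higher and 1 lower. Over all 37645 windows there were 1705, 811 higher and 894 lower. After an arcsine square root there were 6 of 97 Hox windows, 4 higher and 2 lower. Over all 37645 windows there were 2733, 727 higher and 2006 lower. At an adjusted p under 0.05, the count of 14 over all windows was 0 with at least 5 embryos per group and 3 with at least 7. It was 0 with trend and robust fitting, 1 after the arcsine square root and 4 with dense coverage only. With an embryo left out it was 0 to 18: 0 without Padi6-mutant replicate 12, 4 without control 3, 5 without control 4, 6 without Padi6-mutant 14 and 9 without Padi6-mutant 11. The mean Hox difference was -4.37 to -0.02 points with single embryos left out, -4.26 over non-overlapping windows, -1.65 from deviations from window means and 0.73 over windows shared by all densely covered embryos, an alternative chosen after seeing the data. By cluster, leaving out single embryos gave -3.71 to -0.90 in HoxA, -7.61 to -0.71 in HoxB, -8.40 to 0.25 in HoxC and -0.75 to 1.64 in HoxD, and windows shared by the densely covered embryos gave -0.43, 4.05, 0.53 and 1.83. Of 631 estimates for 27 named windows, 12 changed sign. These were chr11:96279938 in densely covered embryos (7.08), chr15:102852931 after the arcsine square root (-0.0452, in radians) and, with single embryos left out, chr11:96191162 (-2.37 to 0.00724), chr11:96091273 (-0.71 to 3.29), chr15:102924366 (-3.125 to 21.9), chr15:102852931 (-2.05 to 12.9), chr15:102850794 (-4.45 to 17.8) and chr2:74502357 (-0.26 to 3.18). The cause was not tested. No paired analysis was possible because controls carry the numbers 1 to 10 and Padi6-mutant embryos 11 to 20.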

Other observations

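In the middle of HoxA, 6 overlapping windows in 1 stretch of 5.82 kb, chr6:52219989-52225811, were at 0% in every control embryo with a value, while 5 of 7 Padi6-mutant embryos held low values above 0. They were chosen after their values were seen, so no test is given for the stretch. Averaged over these windows, Padi6-mutant replicates 11, 12, 14, 15 and 19 stood at 1.56%, 1.35%, 3.86%, 4.14% and 7.34%, replicates 17 and 20 at 0%, and the 8 controls at 0%. Of the 97 tested Hox windows, 9 were at 0% in all their controls (9.28%), against 2.72% of all tested windows, and these 6 are among the 9. In Padi6-mutant embryos, 6 Hox windows were at 0% throughout (6.19%), against 9.12% of all tested windows. Singly, the 6 windows differed by 2.37 to 3.33 points, and the smallest limma adjusted p among them was 0.834.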
